A study of Mus musculus with 6 samples.

Results

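The class II presentation genes considered here were H2-Aa, H2-Ab1, H2-Eb1, H2-DMa, H2-DMb1, H2-Oa, H2-Ob, Cd74 and Ciita, 9 genes in all. Their probe sets were taken wherever the platform annotation gave exactly 1 gene symbol and that symbol was among the 9. This left 11 of 22626 probe sets, which represented 7 of the 9 genes, among 12393 genes in all. H2-DMb1 and H2-Ob had no probe set of their own: 3 probe sets carry the symbol of a member together with that of another gene, and no value was assigned from them. Expression was measured on 1 Affymetrix array per sample in mammary tumours of F1 females that inherited the PyMT transgene (the middle T antigen of polyomavirus, an oncogene that gives rise to mammary tumours). In 3 samples the other parent was AKR/J (AKR F1 tumours), and in 3 samples it was DBA/2J (DBA F1 tumours). The transgene was common to both groups, and the labels give neither the age of the animals nor the strain of the PyMT parent. Each sample title has an identifier of its own, but the labels do not say whether these identifiers mark separate animals, so the p-values given here speak only of sample-to-sample spread, which may be technical.

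MHC class II molecules present peptides from endosomes to CD4 T cells. They pair an alpha and a beta chain in the endoplasmic reticulum, where the invariant chain (Cd74) occupies the peptide groove until H2-DM exchanges its last fragment for antigenic peptide. H2-O restrains H2-DM. The genes are read mainly in dendritic cells, macrophages and B cells, and interferon-gamma can switch them on in other cells through Ciita, the coactivator that docks on the X and Y boxes of their promoters. AKR/J and DBA/2J carry different haplotypes of the H-2 complex, so at the H2 genes a strain difference in probe binding and one in RNA level cannot be told apart.

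Matches to core letters of the X and Y boxes are shown for 3 members. These are the classical chain genes H2-Aa and H2-Eb1, which varied together over the arrays, and the H2-O chain gene H2-Oa, which did not follow them. Each line gives the 150 bases before the annotated gene start in the RefSeq reference (C57BL/6J, GRCm38.p6), with capitals for the motif matches. The windows are chr17:34287824-34287973 on the minus strand for H2-Aa, chr17:34305717-34305866 on the plus strand for H2-Eb1 and chr17:34092229-34092378 on the plus strand for H2-Oa. 
H2-Aa: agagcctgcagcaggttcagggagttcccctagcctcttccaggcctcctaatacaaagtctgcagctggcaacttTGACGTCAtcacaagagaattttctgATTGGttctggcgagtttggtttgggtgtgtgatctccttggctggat
H2-Eb1: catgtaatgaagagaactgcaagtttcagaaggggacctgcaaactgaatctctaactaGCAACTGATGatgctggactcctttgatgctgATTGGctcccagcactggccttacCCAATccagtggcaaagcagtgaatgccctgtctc
H2-Oa: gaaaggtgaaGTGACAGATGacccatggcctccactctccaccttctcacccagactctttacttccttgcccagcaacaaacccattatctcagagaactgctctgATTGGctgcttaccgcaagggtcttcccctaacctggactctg

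Searches covered both strands of the 250 bases before each start. The Y box core CCAAT, read as ATTGG on the opposite strand, began at position -48 in H2-Aa, -59 in H2-Eb1 and -43 in H2-Oa, and at least 1 match was found in 33.8% of 32851 promoter windows. H2-Eb1 held a second match, on the same strand as the gene, at -35. The X1 box core, searched as G, any 2 bases, AC, any base and GATG, began at -91 in H2-Eb1 and at -140 in H2-Oa, and 2.5% of windows held it. The H2-Oa match ended at -131, further from its Y core than the H2-Eb1 match, which ended at -82. Whether the H2-Oa match is its working X box was not tested. H2-Aa had no match to these X1 letters and carried the X2 box core TGACG on both strands, overlapping as 1 palindrome from -74 to -67, which 17.8% of windows held on either strand. Promoter windows were matched for 6 of the 9 genes, namely H2-Oa, H2-DMa, H2-DMb1, H2-Ob, H2-Aa and H2-Eb1. H2-DMb1 held the X1 core at -94 and the Y core at -61, H2-Ob the Y core at -57, and H2-DMa a Y core at -198 in 1 of its 2 windows. These letters are those of the reference strain and a match is not evidence of binding in these tumours.

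The classical class II chains and Cd74 averaged higher in the DBA than in the AKR cross, by 1.48-fold to 1.93-fold at their brightest probe sets, but the values of the crosses overlapped at each of these probe sets. H2-DMa differed little, and the dim probe sets of H2-Oa and Ciita lay slightly higher in AKR F1 tumours. None of the 11 probe sets passed an adjusted p of 0.05 by limma (lowest adjusted p = 0.147), a threshold that 0.0972% of all 22626 probe sets passed. At an unadjusted p under 0.05 there were 2 of 11, both of H2-Ab1, against 26.1% of all probe sets. The values of the crosses did not overlap at 3 of 11 probe sets, against 39.2% of all. Counts of members were thus no higher than the background of this comparison.

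**Figure D1:**
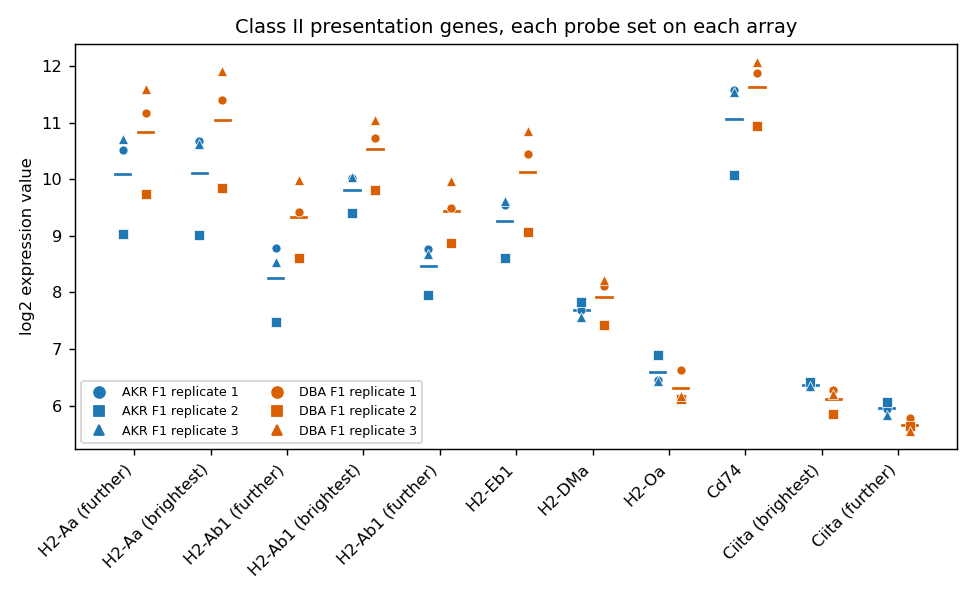
Deposited log2 expression values (vertical axis) of the 11 probe sets of class II presentation genes on the 6 arrays; points are arrays, short lines are means of 3 arrays, blue is AKR F1 and orange DBA F1. Replicate 2 of each cross (squares) is the lowest array of its cross for the classical chains and Cd74, and the crosses overlap there except at 1 probe set of H2-Ab1.

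H2-Aa encodes the alpha chain of the classical A molecule (chromosome 17, positions 34282744 to 34287823 in GRCm38.p6). Its brightest probe set, 1452431_s_at, read 10.68, 9.01 and 10.62 in AKR F1 tumours and 11.40, 9.85 and 11.90 in DBA F1 tumours on the log2 scale. DBA replicates 1 and 3 stood above every AKR tumour, but DBA replicate 2 lay below AKR replicates 1 and 3, so the crosses overlapped. The AKR mean was 10.10 ± 0.95 and the DBA mean 11.05 ± 1.07 (SD, 3 arrays each), a difference of -0.95 (AKR minus DBA; SE 0.64, 95% interval -2.46 to 0.57, adjusted p = 0.337 by limma). The other H2-Aa probe set, 1435290_x_at, gave the same order of arrays within each cross except that AKR replicate 3 exceeded replicate 1, and differed by -0.74.

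H2-Ab1 encodes the beta chain that pairs with H2-Aa (chromosome 17, 34263227 to 34269418). The brightest of its 3 probe sets, 1450648_s_at, read 10.02, 9.40 and 10.03 in the AKR tumours and 10.72, 9.82 and 11.05 in the DBA tumours, again with replicate 2 lowest in both crosses. It differed by -0.71 (SE 0.34, adjusted p = 0.223 by limma). The probe set 1451721_a_at read 8.77, 7.95 and 8.68 in AKR against 9.48, 8.88 and 9.97 in DBA F1 tumours. It was the 1 classical probe set whose crosses did not overlap. Its difference of -0.98 had a 95% interval of -1.76 to -0.20 and the lowest adjusted p of the members (0.147 by limma). The dimmest probe set of H2-Ab1, 1425477_x_at, differed by -1.08 (adjusted p = 0.188 by limma) with an overlap between DBA replicate 2 and the AKR tumours.

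H2-Eb1 encodes the beta chain of the classical E molecule (chromosome 17, 34305867 to 34316674). It read 9.54, 8.62 and 9.61 in the AKR tumours and 10.45, 9.07 and 10.85 in the DBA tumours. DBA replicate 2 was again below AKR replicates 1 and 3. The difference was -0.87 (SE 0.49, 95% interval -2.03 to 0.30, adjusted p = 0.272 by limma).

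H2-Ea, which encodes the alpha partner of H2-Eb1 and was not among the 9 genes, had 3 probe sets that disagreed. At 1422892_s_at it read 6.76, 6.90 and 6.66 in AKR against 10.30, 8.47 and 11.01 in DBA F1 tumours, a difference of -3.15 (SE 0.59, adjusted p = 0.0842 by limma). No AKR tumour came near the DBA tumours there. Over all alternative runs the adjusted p by limma ran from 0.0163 to 0.355. The lowest came without DBA replicate 2, the lowest DBA tumour there. Leaving that tumour out must widen the difference, so this p is not separate support. The brightest H2-Ea probe set, 1422891_at, read 9.53, 9.14 and 9.50 against 9.78, 9.54 and 10.39 and differed by -0.51 (adjusted p = 0.217 by limma). The third H2-Ea probe set, 1426202_at, was dim, with means of 4.80 and 4.42, and lay higher in AKR F1 tumours. The size of the H2-Ea difference thus depended on the probe set, and here too probe binding and RNA level cannot be told apart.

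Cd74, the invariant chain gene (chromosome 18, 60803849 to 60812652), was the brightest member, above 96.9% of all probe sets or level with them. It read 11.57, 10.07 and 11.54 in AKR F1 tumours and 11.88, 10.94 and 12.06 in DBA F1 tumours. AKR replicate 2 stood apart from the other AKR tumours, which lay within the range of the DBA tumours. The difference was -0.57 (SE 0.47, 95% interval -1.70 to 0.56, adjusted p = 0.422 by limma). Without AKR replicate 2 it was -0.07.

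H2-DMa, a chain of the peptide exchange factor H2-DM (chromosome 17, 34119693 to 34139101), read 7.70, 7.83 and 7.56 in the AKR tumours and 8.12, 7.42 and 8.22 in the DBA tumours. AKR replicate 2, lowest for the classical chains, was here the highest AKR tumour, while DBA replicate 2 was again lowest. H2-DMa differed by -0.22 (SE 0.22, 95% interval -0.76 to 0.31, adjusted p = 0.503 by limma). H2-Oa, a chain of the H2-DM inhibitor H2-O (chromosome 17, 34092379 to 34095234), read 6.46, 6.90 and 6.44 in the AKR tumours and 6.63, 6.13 and 6.17 in the DBA tumours. Its values overlapped, and AKR replicate 2 was the highest of the 6. H2-Oa differed by 0.29 (SE 0.20, adjusted p = 0.337 by limma).

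Ciita, the coactivator gene (chromosome 16, 10480014 to 10531064), had 2 dim probe sets, at or above only 25.3% and 18.3% of all probe sets. The brighter, 1421210_at, read 6.32, 6.42 and 6.34 in AKR against 6.29, 5.86 and 6.20 in DBA F1 tumours. The dimmer, 1421211_a_at, read 5.94, 6.07 and 5.84 against 5.78, 5.65 and 5.56. At both probe sets every AKR tumour lay above every DBA tumour, by small margins. The differences were 0.25 (adjusted p = 0.286 by limma) and 0.29 (adjusted p = 0.195 by limma). No detection calls were used, so whether these values lie above background was not tested, and such low values can understate a difference. The Ciita differences were 0.08 and 0.12 after quantile normalization, and 0.12 at the brighter probe set without DBA replicate 2.

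The sign of a member's difference went with its level, as it did for all probe sets. Of the 7 genes at their brightest probe sets, 5 were lower in the AKR cross (median difference -0.57), against 45.2% of all 12393 genes, with a median of 0.05. In the brightest decile of probe sets, from 10.10 to 14.29, which holds H2-Aa, the brightest H2-Ab1 probe set and Cd74, 76.2% lay lower in AKR F1 tumours and the median difference was -0.21. In the third decile, from 5.92 to 6.52, which holds H2-Oa and the brighter Ciita probe set, 24.2% lay lower and the median was 0.23. Relative to the median of their own decile the differences were -0.73 for H2-Aa, -0.50 for H2-Ab1, -0.66 for H2-Eb1, -0.36 for Cd74 and -0.24 for H2-DMa. On the same scale they were 0.06 for H2-Oa and 0.01 for Ciita, so these dim members lay at the level-matched background. In the decile of H2-Aa 3.18% of probe sets lay further below 0 than it did. The same share, each in the gene's own decile, was 5.22% for H2-Eb1 and 6.54% for the brightest H2-Ab1 probe set. It was 12.6% for Cd74 and 31.4% for H2-DMa. After quantile normalization, which removes the differences between the arrays' distributions, H2-Aa differed by -0.73, H2-Eb1 by -0.67 and Cd74 by -0.33, the last moving by over 1.5 times. H2-Oa differed by 0.15 on that scale.

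**Figure D2:**
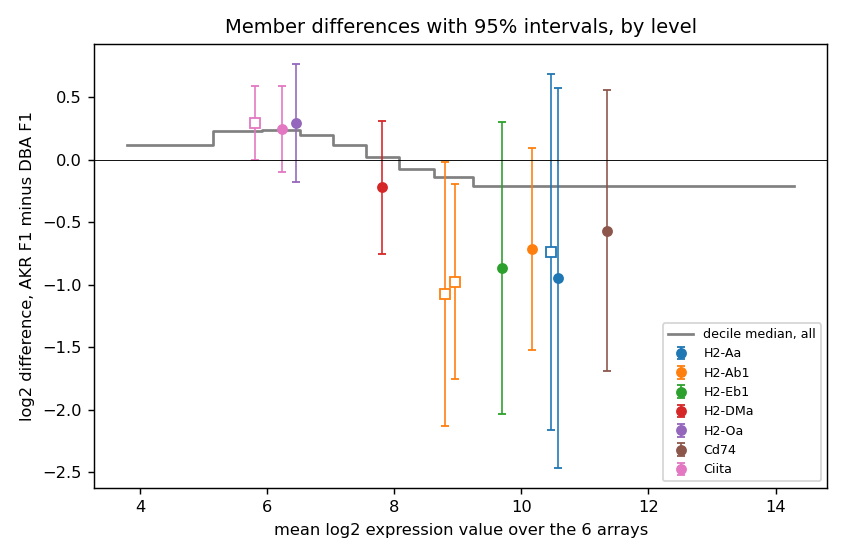
Log2 difference, AKR F1 minus DBA F1 (vertical axis), of the 11 probe sets against their mean log2 value over the 6 arrays (horizontal axis); bars are 95% intervals from limma, filled circles are each gene's brightest probe set and open squares its further ones, and the grey line is the median of all probe sets in each decile of level. The dim members sit on the grey line near 0.2 and the bright members lie below it, with wide intervals.

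For H2-Aa, H2-Eb1 and Cd74, the fall on replicate 2 of a cross was larger than the difference between the crosses. H2-Aa in AKR replicate 2 was 1.64 log2 units below the mean of the other AKR tumours, and in DBA replicate 2 it was 1.80 below the mean of the other DBA tumours, both larger than the 0.95 between the crosses. For Cd74 the corresponding drops were 1.49 and 1.03, for H2-Eb1 0.96 and 1.58, and for the brightest H2-Ab1 probe set 0.63 and 1.07. H2-Ab1 was less uniform, since 0.63 is below the 0.71 between the crosses at that probe set. AKR replicate 2 also had the narrowest distribution of all arrays (SD 1.76 against 1.90 to 2.02), and the median drop on it over the brightest decile was 0.28. On AKR replicate 2, 0.265% of probe sets in that decile fell further than H2-Aa and 0.442% further than Cd74. For the brightest H2-Ab1 probe set, in the same decile, it was 10.7%. For H2-Eb1 it was 4.33% of its own decile. On DBA replicate 2 the median drop over that decile was 0.07, and 0.619% of its probe sets fell further than H2-Aa. H2-DMa, H2-Oa and Ciita did not show the drop on AKR replicate 2, where they read above the mean of the other AKR tumours by 0.19, 0.45 and 0.08. On DBA replicate 2 they read below the mean of the other DBA tumours by 0.75, 0.28 and 0.38. At the dimmer Ciita probe set that drop was only 0.02. These tumours were singled out after their values were seen.

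**Figure D3:**
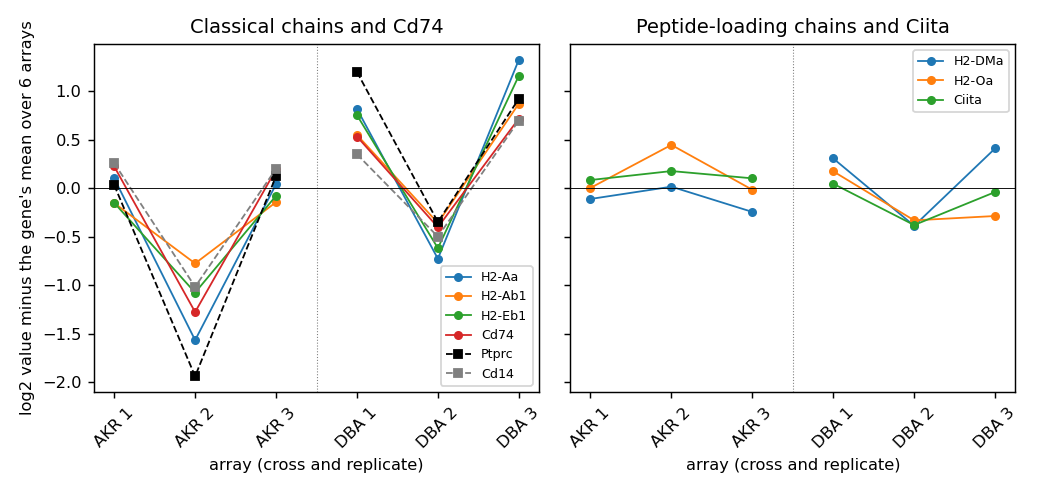
Log2 value minus the gene's own mean over the 6 arrays (vertical axis) for each array (horizontal axis), at the brightest probe set of each gene. On the left, H2-Aa, H2-Ab1, H2-Eb1 and Cd74 fall on replicate 2 of both crosses together with Ptprc and Cd14 (dashed); on the right, H2-DMa, H2-Oa and Ciita stay within 0.5 of their means.

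The members were also compared by the root mean square difference between the mean-centred values of a pair of genes over the 6 arrays, where 0 is an identical profile. Among 12392 other genes the one nearest to H2-Aa was H2-Eb1 (0.25), its neighbour at the locus, and Cd74 ranked 5 (0.34) and H2-Ab1 30 (0.44). H2-DMa ranked 2485, Ciita 6019 and H2-Oa 9057. The genes outside the members that lay nearest to H2-Aa were the macrophage mannose receptor gene Mrc1 (0.26), the pan-leukocyte phosphatase gene Ptprc, which encodes CD45 (0.32), Abi3bp (0.32), Evi2a (0.36) and the complement C1 inhibitor gene Serping1 (0.37). Nearest to Cd74 were the lipopolysaccharide co-receptor gene Cd14 (0.14), the tight junction gene Marveld2 (0.16), the cytokine receptor gene Csf2rb (0.16), the fibroblast activation protein gene Fap (0.16) and Amot (0.18). A profile over 6 arrays has few degrees of freedom, and these likenesses are descriptions.

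Some leukocyte markers, but not all, were lowest on the same arrays as the classical chains. In the pan-leukocyte list 5 of 9 genes were lowest on replicate 2 of both crosses, against 12 of 16 macrophage markers, 0 of 11 dendritic cell markers and 7 of 11 mammary epithelial markers. The share of all genes lowest on both arrays was not counted, so these counts have no background here. The brightest decile of probe sets also fell on AKR replicate 2, by a median of 0.28. Other leukocyte markers were not lowest on both arrays. Cd37, which encodes a tetraspanin, was highest among the AKR tumours on replicate 2 (7.48, 7.89 and 7.26). It lay higher in AKR F1 tumours by 0.34. Laptm5, which was among the genes lowest on replicate 2 of both crosses, also lay higher in AKR F1 tumours, by 0.20. Ptprc, shown because it was the pan-leukocyte marker nearest to H2-Aa, read 8.66, 6.69 and 8.75 in the AKR tumours and 9.83, 8.28 and 9.55 in the DBA tumours, lowest on replicate 2 of each cross, with a difference of -1.19 (adjusted p = 0.258 by limma). The log2 ratio of Cd74 to Ptprc was higher in AKR F1 tumours by 0.62, with a range of 1.33 over the 6 arrays. In whole tumours, fewer cells of a type and less RNA per cell cannot be told apart.

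The lists of other cell types gave the following. In the pan-leukocyte list 7 of 9 genes were lower in the AKR cross (median -0.31), and the mean of the list ran from 8.20 to 8.75 on the AKR arrays and from 8.54 to 9.13 on the DBA arrays. In the macrophage list 12 of 16 were lower (median -0.26), with list means of 8.15 to 8.90 and 8.53 to 9.11. On replicate 2 the macrophage list lay 0.69 below the other AKR tumours and 0.51 below the other DBA tumours, and the pan-leukocyte list 0.45 and 0.52 below. Dendritic cell markers showed no such drop on AKR replicate 2 (0.19 above) and only 0.03 on DBA replicate 2. Of that list, 8 of 11 genes lay higher in AKR F1 tumours (median 0.11), with list means of 6.94 to 7.17 and 6.93 to 6.98. The dendritic cell median was -0.18 among probe sets brighter than the median, where only Itgax (-0.46) and Fscn1 (0.09) of that list remained. Direction is read against level here too: in the fourth decile of all probe sets, from 6.52 to 7.03, 30.4% lay lower in AKR F1 tumours and the median difference was 0.20. B cell markers had 5 of 11 genes lower in AKR F1 tumours (median 0.10, list means 6.58 to 6.73 and 6.74 to 7.33). T cell markers had 2 of 10 lower (median 0.30, list means 6.85 to 7.23 and 6.60 to 6.96). Lymph node markers lay lower in 1 of 6 (median 0.26; 6.55 to 6.98 and 6.29 to 6.73). Without AKR replicate 2 the macrophage median was -0.05, and leaving out DBA replicate 3 gave -0.05 and DBA replicate 2 gave -0.48. The pan-leukocyte median was -0.56 without DBA replicate 2, and the T cell median 0.15 without AKR replicate 2. Over single arrays left out, the B cell median ran from 0.04 to 0.27, the dendritic cell median from 0.05 to 0.19 and the lymph node median from 0.16 to 0.45. With all arrays none of these genes passed by limma, and an unadjusted p under 0.05 was reached by 2 pan-leukocyte, 1 macrophage, 2 dendritic cell, 2 B cell, 4 T cell and 2 lymph node markers, against 26.1% of all probe sets. The part of cell content in the class II values was not tested.

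Among these markers those with the smallest p-values included Cd52 (-0.67) and Ptprc in the pan-leukocyte list, and the phagocytic receptor gene Mertk (-0.72), C1qa (0.54) and Cd68 (-0.47) in the macrophage list. In the dendritic cell list they were Flt3 (0.32), a growth factor receptor of dendritic cell precursors, Ccl22 (0.38) and Xcr1 (0.38). B cell genes were led by Pou2af1 (-3.23), a coactivator of immunoglobulin genes, at 5.01, 5.23 and 5.10 in AKR against 6.65, 10.09 and 8.27 in DBA F1 tumours, followed by Pax5 (0.42) and Fcer2a (0.47). Pou2af1 passed without DBA replicate 1 (-4.07, adjusted p = 0.0274 by limma). In that run 263 of all probe sets passed, against 22 with all arrays. Among the DBA tumours Pou2af1 was highest on replicate 2, where the classical class II genes were lowest in that cross. The B cell list did not follow it: its mean lay 0.34 below the other DBA tumours on that array. T cell genes were led by Zap70 (0.49), Cd4 (0.70) and Cd3e (0.48), and lymph node genes by Madcam1 (0.55), Clec4g (0.41) and Tnfsf11 (0.24).

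Mammary epithelial markers averaged 10.89 to 11.04 on the AKR arrays and 10.28 to 10.94 on the DBA arrays (median difference 0.17). They were led by the claudin gene Cldn3 (higher in AKR F1 tumours, by 1.18 without DBA replicate 1, where it passed), Esr1 (0.53) and Cldn7 (0.49). Skeletal muscle markers averaged 8.30 to 9.91 in AKR F1 tumours and 6.15 to 11.73 in DBA F1 tumours, highest on DBA replicate 1, with Acta1 at 2.49, Mb at -0.74 and Tnnc2 at 1.81. The muscle median of 0.94 became 2.81 without DBA replicate 1, where Acta1 (4.78, adjusted p = 0.0240 by limma), Tnnt3, Tnnc2 and Atp2a1 passed, and it was -0.03 without DBA replicate 2. Adipocyte markers ran from 7.86 to 8.14 and from 6.62 to 9.85, also highest on DBA replicate 1, with Lipe at 0.80, Fabp4 at -1.06 and Car3 at 1.34. Without DBA replicate 1 the differences were -0.77 for H2-Aa, -0.71 for H2-Eb1 and -0.44 for Cd74.

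Upstream of the class II genes, the factors that sit on the X and Y boxes gave differences of both signs between the crosses. Of 10 measured promoter factors 6 lay lower in AKR F1 tumours, the median was -0.05, and none passed by limma or had an unadjusted p under 0.05. The RFX subunit genes Rfxap (-0.30), Rfxank (0.28) and Rfx5 (-0.11) went both ways, as did the Y box subunit genes Nfya (0.22), Nfyb (0.03) and Nfyc (-0.09), and the acetyltransferase gene Kat2b differed by -0.58. Among 12 measured genes that control Ciita, 6 lay lower and 6 higher in AKR F1 tumours, the median was -0.02 and none passed by limma, while 3 had an unadjusted p under 0.05. Without AKR replicate 2 the median was 0.08, and without DBA replicate 1 the gene Usf1 passed (adjusted p = 0.0483 by limma). Without DBA replicate 1, 263 of all probe sets passed, against 22 with all arrays.

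Within the latter list, Usf1, a transcription factor that binds a Ciita promoter, read 7.57, 7.79 and 7.69 in AKR against 6.78, 6.67 and 6.77 in DBA F1 tumours. The AKR tumours lay above the DBA tumours without overlap (difference 0.95, adjusted p = 0.0570 by limma). Jak1, a kinase of the interferon receptors, read 10.14, 10.02 and 10.35 against 11.27, 10.91 and 11.26 and differed the other way (-0.98, adjusted p = 0.0774 by limma). The myeloid factor gene Spi1 differed by 0.30. Ifng, the gene of interferon-gamma itself, lay between 4.87 and 5.13 on all 6 arrays. Its probe set was dim, at or above only 8.63% of all probe sets, and whether it lies above background was not tested. Irf1, an interferon-gamma target that acts on Ciita, differed by -0.16.

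Genes of the endosomal compartment, where class II molecules are loaded, were lower in the AKR cross for 12 of the 13 that were measured (median -0.40, -0.25 without AKR replicate 2 and -0.15 after quantile normalization). By limma none passed, and 5 had an unadjusted p under 0.05, against 26.1% of all probe sets. Their array means ran from 10.65 to 11.28 in AKR and from 11.51 to 11.74 in DBA F1 tumours and did not overlap. The protease inhibitor gene Cst3 read 11.06, 9.83 and 11.02 against 11.66, 12.75 and 13.03 (difference -1.84, adjusted p = 0.105 by limma). The asparaginyl protease gene Lgmn differed by -0.97 and the lysosomal membrane gene Lamp2 by -0.65. The invariant chain protease gene Ctss differed by -0.33 and the thiol reductase gene Ifi30 by -0.48. All but 1 of the 13 genes were thus on the same side as the classical chains, in a range of level where most probe sets were lower in AKR F1 tumours. On DBA replicate 2 this list lay only 0.11 below the other DBA tumours, against 1.80 for H2-Aa.

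Genes that govern the surface life of class II molecules (3 measured, median -0.41) were the tetraspanin gene Cd9 (-0.41), Cd83 (-0.43), which opposes class II ubiquitination, and Cd82 (0.06). Their median was -0.23 without AKR replicate 2 and -0.17 after quantile normalization. Costimulatory and CD4 T cell genes lay higher in AKR F1 tumours in 9 of 12 measured cases (median 0.20, and 0.06 after quantile normalization), at levels where most probe sets lay higher in that cross, with Cd4 at 0.70, the costimulatory ligand gene Cd80 at 0.25 and the class II-binding receptor gene Lag3 at 0.42. H2-DMb2, measured at a probe set of its own, differed by 0.22. None of these passed by limma; Cd9 and Cd4 had an unadjusted p under 0.05.

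Class I presentation genes ordered the DBA tumours in another way than the classical class II chains. All 9 measured class I genes lay lower in AKR F1 tumours (median -1.21), 8 without overlap (39.2% of all probe sets). Their levels fell in deciles 8, 9 and 10 of all probe sets, where 62.9%, 70.2% and 76.2% lay lower. None of the 9 genes passed by limma with all arrays, where 8 had an unadjusted p under 0.05 (26.1% of all probe sets). Without DBA replicate 1, which had the lowest class I mean of the DBA arrays (10.78), 6 passed. The count over all probe sets was 263 in that run, against 22 with all arrays. With all arrays B2m, H2-K1 and H2-D1 differed by -1.57, -1.21 and -1.15. On DBA replicate 2 the mean of the class I list stood 0.56 above the other DBA tumours, whereas H2-Aa stood 1.80 below them. That contrast between the gene groups was seen in 1 tumour and was not tested.

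**Figure D4:**
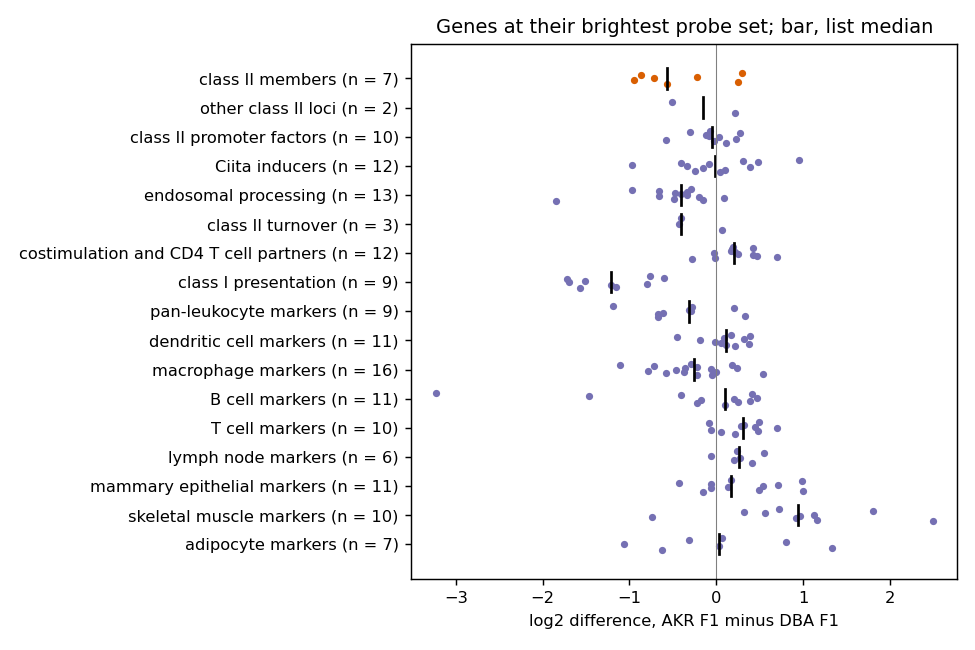
Log2 difference, AKR F1 minus DBA F1 (horizontal axis), of each measured gene of 17 lists at its brightest probe set; points are genes, orange marks the class II members, black bars are list medians and n is the number of genes measured. The class II median is -0.57, between the class I list (-1.21) and the endosomal processing list (-0.40).

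The class II differences depended on which tumours were used, while their signs mostly did not. Without AKR replicate 2, H2-Aa differed by -0.40, H2-Eb1 by -0.55 and Cd74 by -0.07. Without DBA replicate 2 these were -1.55, -1.39 and -0.91, the largest over the arrays left out in turn, and the adjusted p by limma was 0.190, 0.136 and 0.280. Without DBA replicate 3, H2-Aa differed by -0.52 and Cd74 by -0.35. H2-DMa ran from -0.47 to -0.07 over the arrays left out in turn, and H2-Oa from 0.14 to 0.45. The brightest H2-Ab1 probe set ran from -1.07 to -0.45 and the brighter Ciita probe set from 0.12 to 0.33. The median of the 7 genes was -0.29 without AKR replicate 2 and -0.91 without DBA replicate 2. No member probe set passed with any single array left out.

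**Figure D5:**
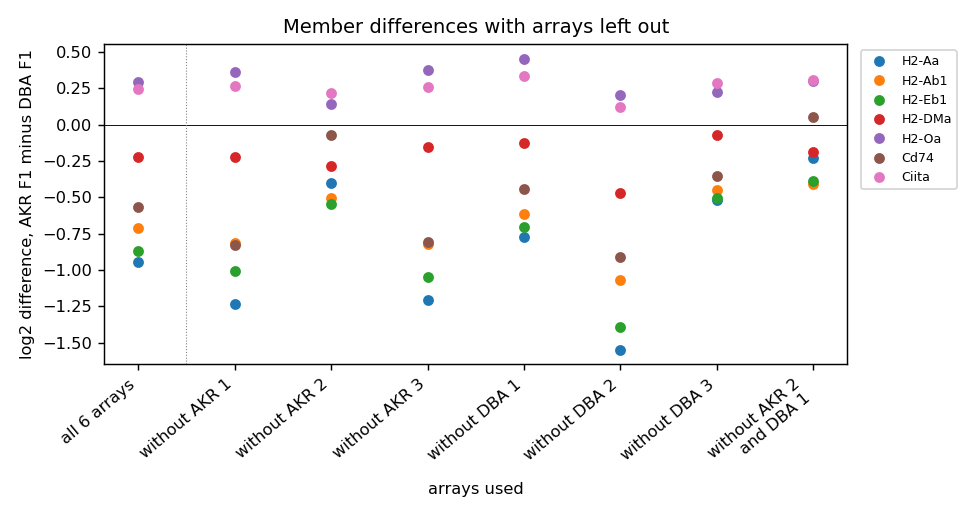
Log2 difference, AKR F1 minus DBA F1 (vertical axis), of each member at its brightest probe set, with all 6 arrays and with the arrays named on the horizontal axis left out. H2-Aa ranges from -1.55 without DBA replicate 2 to -0.40 without AKR replicate 2 among single arrays left out, and Cd74 crosses 0 when AKR replicate 2 and DBA replicate 1 are both left out.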

How the data were processed

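The deposited table holds log2 values of 22690 probe sets on 6 arrays. Per the submitters' processing notes, the tools listed for the deposited values are MAS5 and RMA, in roles not given in the sources used here. That the deposited values are on a log2 scale follows from their range (3.65 to 14.73, array medians 7.52 to 7.57). The groups came from the source names, and replicate numbers only name samples. After leaving out 64 control probe sets, limma 3.58.1 in R 4.3.3 (lmFit, eBayes, two-sided, Benjamini-Hochberg) was fitted to all 22626. Genes were named from the 20380 probe sets with 1 symbol and represented by their brightest probe set.

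Members and the 16 other gene lists were chosen with earlier results of these data known. The text names all member probe sets, the 3 genes with the lowest p in every list except for 1 pan-leukocyte gene that is not reported here, and the 5 genes nearest to Cd74 and H2-Aa; other genes were picked for their role or after their values were seen. Promoters came from RefSeq (GRCm38.p6). The fit was tested on simulated data. Precision is limited by 3 arrays per cross. Figures used matplotlib 3.10.9 in Python 3.11.15.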

Additional observations from a re-analysis of the deposited data

How the results depend on the processing

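The count of member probe sets past an adjusted p of 0.05 was 0 with all arrays and under each alternative run, an adjusted p of 0.10 included. Of 129 differences of member probe sets under alternatives, 128 kept their direction. The exception was Cd74, at 0.051 with AKR replicate 2 and DBA replicate 1 left out together. The 129 include settings that cannot change a difference. These are the threshold of 0.10, another limma prior for the spread and the restriction to brighter probe sets. The count is thus not one of 129 separate checks of direction. The median difference of the member genes ran from -0.91 to -0.29 with single arrays left out, and from -0.91 to -0.19 over all alternatives. The number of members lower in AKR F1 tumours was 5, or 4 with that pair of arrays left out. Over all probe sets the count past the threshold was 22. It was 36 after quantile normalization, 102 among probe sets brighter than the median, 1 with a gene's probe sets averaged, 810 at an adjusted p of 0.10, 657 without AKR replicate 2 and DBA replicate 1, and 1 to 263 with single arrays left out. The causes were not tested. H2-Ea at its largest difference passed only without DBA replicate 2 and at an adjusted p of 0.10. No paired analysis was possible because the labels give no replicate numbers. Probe sets dimmer than the median, those of H2-Oa and Ciita, had no value among the brighter ones.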
